A study of Mus musculus with 6 samples.

Results

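The 38 autophagy and lysosome genes described here were read from RNA-seq of tibialis anterior (TA), a limb muscle of mostly fast fibres. They were chosen by function and found by gene symbol among the 41025 genes of each library's table, and all 38 had a mean of at least 1 FPKM and entered the test. FPKM scales the fragments of a gene by its length and by the total of the library. The 6 libraries came from C57BL/6 mice aged 8 weeks, 3 of wild-type genotype and 3 labelled Mettl21e KO, a deletion of a muscle methyltransferase gene. They are called WT 1 to 3 and KO 1 to 3 below, after their labels and replicate numbers. The sources used here do not give the deleted segment or the sex of the mice. The replicates are called biological in the series' design, and p-values here reflect how far these libraries spread.

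The targeted gene did not separate the labels. Mettl21e was at 2.46, 0.309 and 1.23 FPKM in WT 1, 2 and 3 and at 1.64, 1.45 and 1.88 FPKM in KO 1, 2 and 3, and the groups overlapped. An exact two-sided permutation test gave p = 0.7, where 3 against 3 libraries cannot go below 0.1, and the log2 difference turned from 0.29 to -0.07 without WT 2. WT and KO are thus names of labels throughout, and every difference is KO minus WT. Muscle identity was clear, with 10 muscle fibre markers summing to 79956 to 88029 FPKM per library, although the fast troponin gene Tnnc2 lay between 0.374 and 1.45 FPKM. Library totals ranged from 8476591 to 10856669 fragments. A member was covered by 84 fragments at the lowest (Atg14) and by 7431 at the highest (Ctsd), a counting error of 10.9% and 1.16% of the value.

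Autophagy encloses cytoplasm in a double membrane, the autophagosome, and delivers it to lysosomes for breakdown. The ULK1 kinase complex and a lipid kinase complex around Beclin 1 start the membrane, ubiquitin-like enzymes attach ATG8 proteins such as LC3 to it, and cargo receptors tie ubiquitinated proteins or mitochondria to the ATG8 proteins. Lysosomal proteases, glycosidases and membrane proteins finish the work, and the MiT/TFE factors TFEB, TFE3 and MITF switch on genes of both compartments. In skeletal muscle the pathway clears damaged mitochondria and protein aggregates and runs higher during fasting, and the lysosomes of fibres fill with glycogen when acid alpha-glucosidase is missing.

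A sequence feature that the choice of members did not use is the word CACGTG, the core that MiT/TFE factors recognise, with TCACGTGA as the longer form. Both words read the same on both strands, and each TCACGTGA also holds a CACGTG. RefSeq promoter windows (GRCm38.p6, 250 bases before to 50 after a start) were listed for 31 of the 38 members, and Becn1, Pik3c3, Atg12, Atg16l1, Map1lc3a, Bnip3l and Ctsb had no entry. CACGTG stood in a window of 10 of the 31 members (32.26%) against 2187 of 27025 genes (8.093%). The 10 were the lysosomal genes Lamp1, Ctsa, Ctsd, Ctsl and Gaa, the conjugation genes Atg3, Atg5 and Atg7, the initiation gene Atg14 and the cargo receptor gene Bnip3. Pathway lists described further on had similar or lower shares of genes with CACGTG. They were 34.38% (other lysosomal), 33.33% (vacuolar ATPase) and 29.41% (nutrient and transcriptional control). Other autophagy machinery had 9.091%, and other receptors and mitophagy genes had 7.143%. TCACGTGA stood in 3 of the 31 members, Atg3, Ctsa and Ctsd (9.677%), against 1.125% of all genes. The word TGTTTAC, a FoxO-type site searched on both strands, stood in 0 of the 31 members against 4.052% of all genes. These are letter matches, and differences in base composition between promoters were not taken into account. The stretches upstream of 4 members are shown to give the word in its surroundings, from 4 matches in Lamp1 and both forms in Atg3 to 1 match each in Gaa and Bnip3, with capitals marking CACGTG or TCACGTGA and each read 5′ to 3′ on the gene's strand. They lie at chr8:13159011-13159160 (plus strand) for Lamp1, with 4 matches, at chr16:45158707-45158784 (plus) for Atg3, with 2 matches, at chr11:119267813-119267886 (plus) for Gaa and at chr7:138909520-138909656 (minus) for Bnip3.
Lamp1: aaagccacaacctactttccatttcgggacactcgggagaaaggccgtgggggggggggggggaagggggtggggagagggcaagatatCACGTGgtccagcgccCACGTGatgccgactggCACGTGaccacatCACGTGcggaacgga
Atg3: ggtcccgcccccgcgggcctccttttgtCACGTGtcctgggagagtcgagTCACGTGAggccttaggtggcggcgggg
Gaa: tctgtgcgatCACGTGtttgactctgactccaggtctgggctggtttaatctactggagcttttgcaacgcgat
Bnip3: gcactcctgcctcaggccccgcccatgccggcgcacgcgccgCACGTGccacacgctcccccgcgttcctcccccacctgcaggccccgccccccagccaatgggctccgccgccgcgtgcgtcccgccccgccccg

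The members were steady across the 6 libraries, and none passed the test between the labels. limma on log2(FPKM + 1) called 0 of the 38 members at a Benjamini-Hochberg adjusted p of 0.05, and 0 of 11383 tested genes (0%), with adjusted p values of the members from 0.988 upward. At an unadjusted p under 0.05, 0 members were higher and 3 were lower in KO libraries (7.895% of members), namely Atg3, Tfe3 and Ctsz. Over all tested genes the shares were 1.28% higher and 3.31% lower. voom on the fragments recovered from the FPKM also called 0 members and placed the same 3 under 0.05. After median subtraction or quantile normalization only Ctsz was under 0.05, so Atg3 and Tfe3 were not, and with the replicate block none was. The count of 3 moved to 5 without WT 1, where the count over all tested genes went from 523 to 1356. It was 1 without WT 2, 0 without WT 3, 4 without KO 1, 0 without KO 2 and 1 without KO 3. Values of the 2 labels did not overlap for 4 members that were lower, Atg3, Map1lc3a, Tfe3 and Ctsd (10.53%, against 5.64% of all tested genes), and for 1 that was higher, Pik3c3 (2.632%, against 3.84%).

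Member differences ran from -0.32 (Ctsz) to 0.11 (Pik3c3) on the log2 scale, with a median of -0.013 beside -0.024 over all tested genes. Of the members, 21 lay below 0 and 17 above, and after subtraction of each library's median, which adds 0.047 to every difference, 16 lay below 0 and the median was 0.034. The 95% intervals of the differences were narrow. For 37 of the 38 members the whole interval lay inside a 1.5-fold change of FPKM + 1 in either direction. The share was 80.5% of all tested genes and 86.3% of tested genes in the members' range of mean FPKM. The exception among the members was Ctsz, whose interval covered ratios of 0.665 to 0.968. Tfe3, with a mean of 4.47 FPKM, lay just inside, with a lowest ratio of 0.679. Interval ratios here and below are ratios of FPKM + 1, which understate changes of low genes. The highest of the 6 libraries was less than 1.5 times the lowest for 35 of 38 members (92.1%), against 61.2% of all tested genes, 72.9% of tested genes in the members' range of mean FPKM and 80.2% of the 116 other pathway genes described further on. The comparison genes were not matched on level. The median of mean FPKM was 36.4 for the members, 12.8 for genes in their range and 15.1 for the other pathway genes. The steadiest was Lamp2, with a ratio of highest to lowest library of 1.05, and the widest was Gabarapl1 at 1.53.

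**Figure D1:**
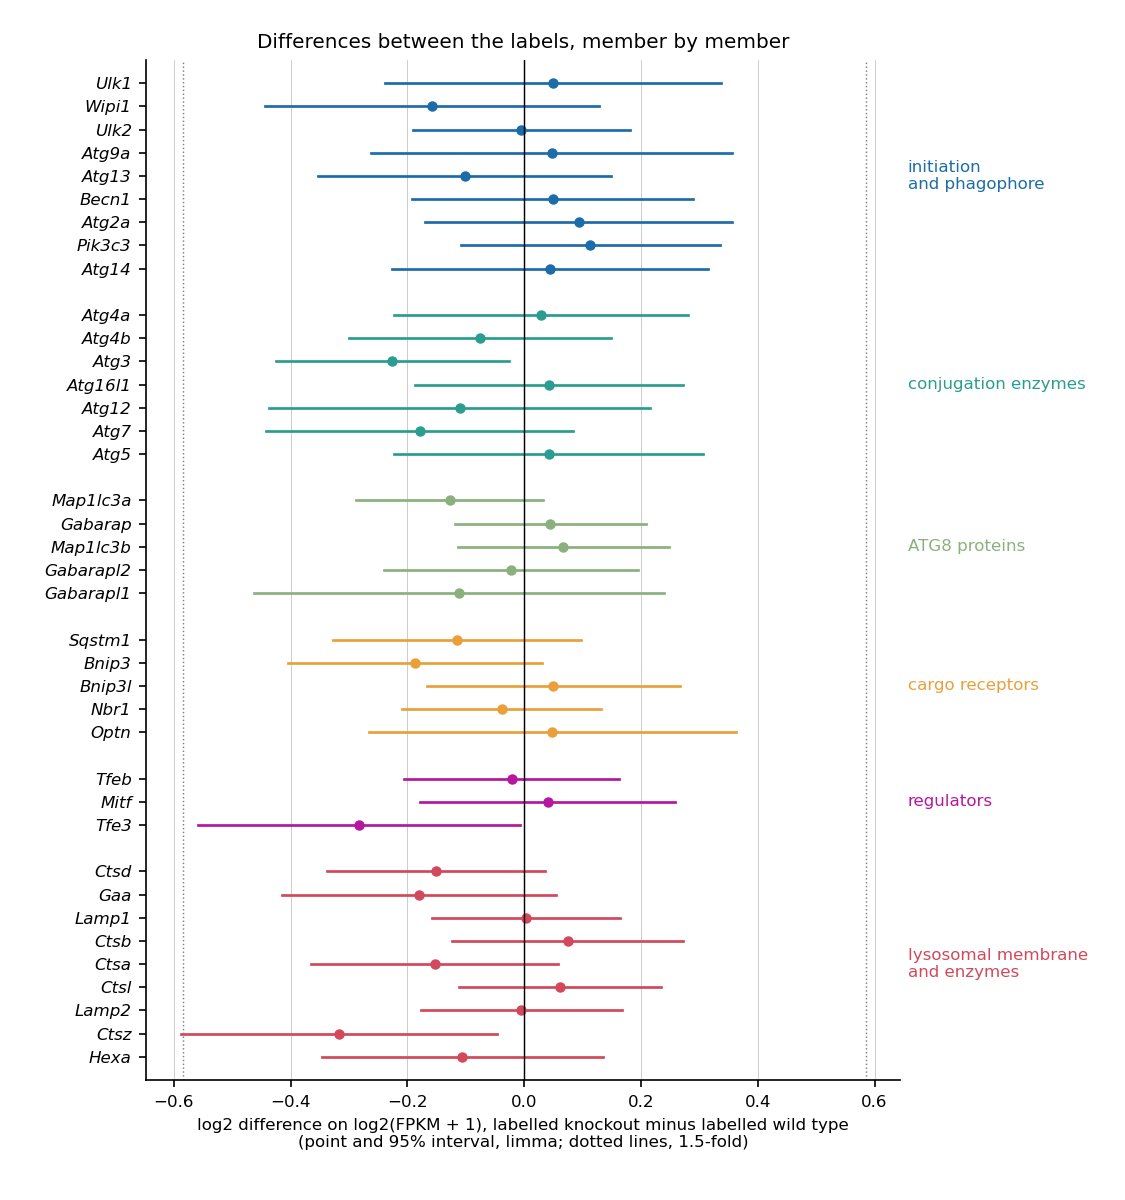
Log2 difference on log2(FPKM + 1), labelled knockout minus labelled wild type, for each of the 38 genes (horizontal axis), grouped by role. Points are limma estimates, lines their 95% intervals and dotted lines a 1.5-fold change of FPKM + 1. The intervals of 37 genes lie between the dotted lines, and those of Atg3, Tfe3 and Ctsz lie wholly below 0.

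Levels differed far more between members than between libraries, from 2.99 FPKM for Atg14 to 475 FPKM for Ctsd (means of 6 libraries, as deposited). The other members above 100 FPKM were Sqstm1 at 409, Bnip3 at 259, Gaa at 172, Map1lc3a at 160, Lamp1 at 153, Gabarap at 132 and Tfeb at 115 FPKM. These are cargo receptors, ATG8 proteins, lysosomal proteins and 1 regulator. Initiation and conjugation members stayed at or below the 66.9 FPKM of Ulk1.

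**Figure D2:**
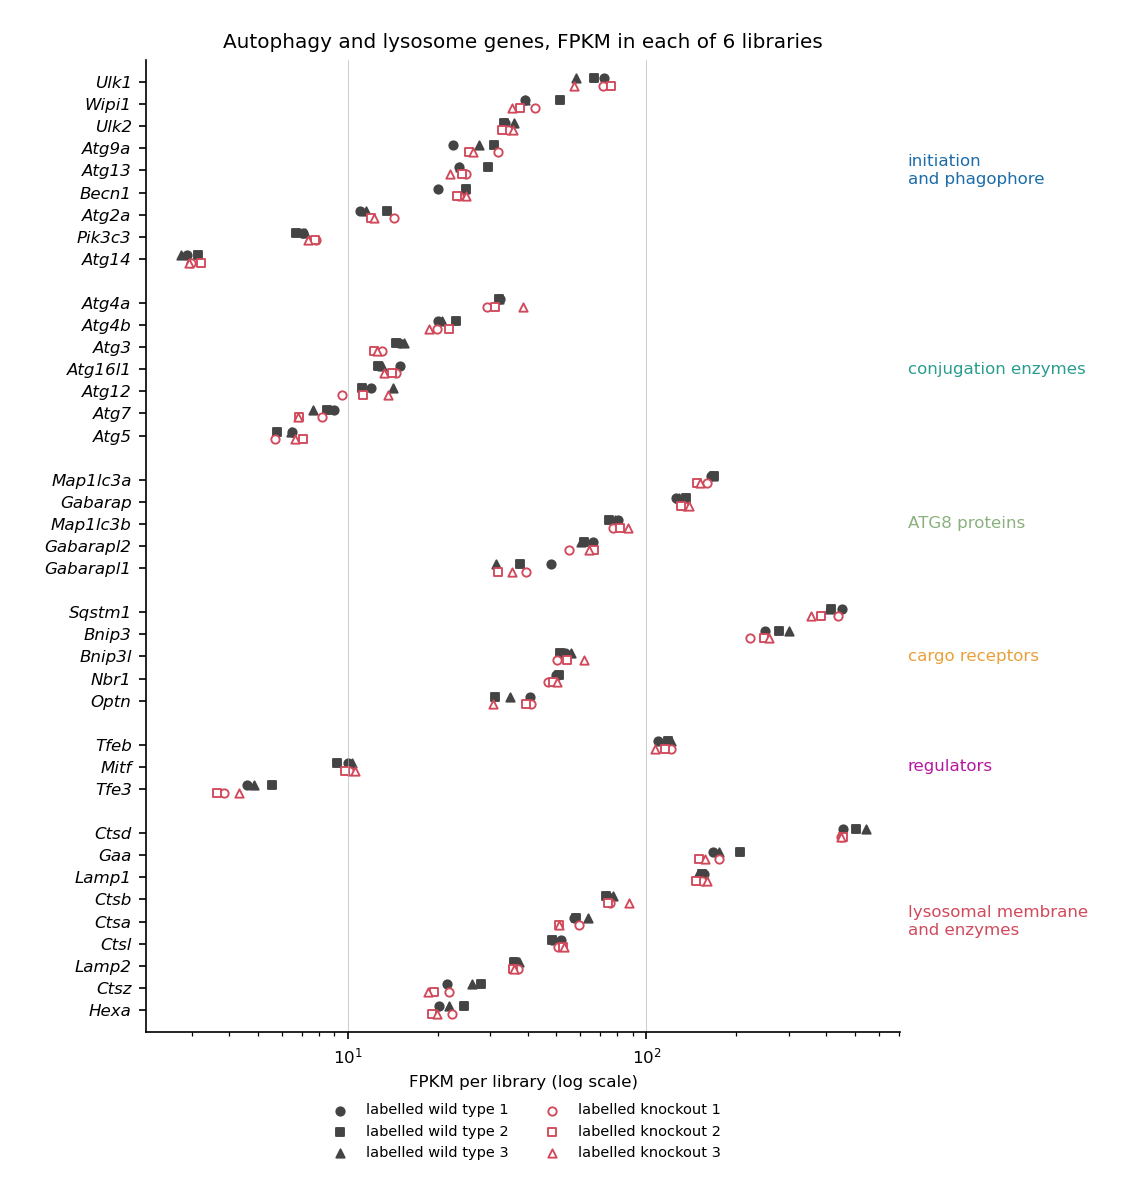
FPKM (log axis) of the 38 genes in each of the 6 libraries, sorted by mean within each role; filled symbols are WT libraries and open symbols KO libraries, with a shape for each replicate number. Symbols of a gene sit close together beside the range from 2.99 to 475 FPKM between genes.

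The gene length behind the deposited FPKM bears on the order of the levels. Lengths recovered from the values equalled the mean length of a gene's annotated GENCODE transcripts within 1 base for 27 of the 36 members with at least 2 transcripts (75%), and for 6009 of 9320 such genes in the tables (64.47%). They equalled the longest transcript for 1.685% of those genes. Many short transcripts in the annotation thus come with a higher FPKM. Ulk1, with 11 transcripts and a recovered length of 1297 bases, was at 66.9 FPKM as deposited and at 16.7 FPKM on its longest transcript of 5213 bases. It then ranked behind Wipi1 (21.0), Ulk2 (19.2) and Atg9a (16.7) among the initiation genes. Atg4b moved from 20.7 to 5.91 FPKM, Ctsl from 50.9 to 16.3 FPKM and Ctsa from 56.8 to 16.9 FPKM. Ctsz has 1 transcript and stayed at 22.6 FPKM. Ctsd and Sqstm1 were the 2 highest members on either scale, at 304 and 187 FPKM on the longest transcript, and Tfeb remained the highest regulator at 48.6 FPKM. The length is the same in every library. It enters the differences between labels only through the 1 added to FPKM before the log2 and through the filter on mean FPKM.

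**Figure D3:**
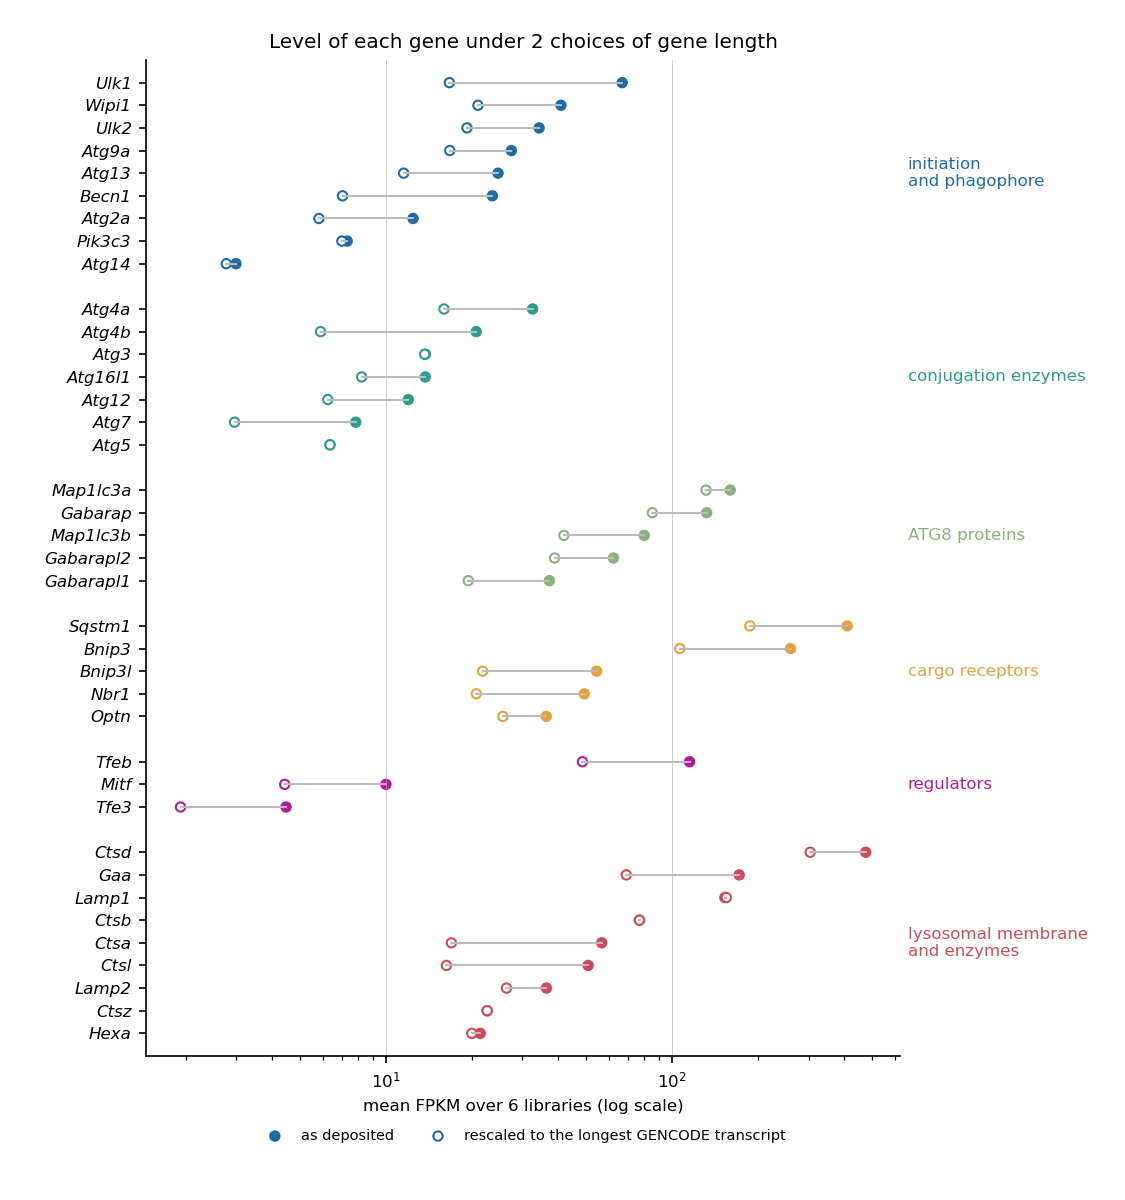
Mean FPKM over 6 libraries (log axis) of each gene as deposited (filled) and rescaled to its longest GENCODE transcript (open). Ulk1, Atg4b, Ctsa and Ctsl move far to the left, while Atg3, Atg5, Ctsb, Ctsz and Lamp1 keep their place.

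Initiation and phagophore genes lay on both sides of 0, with 6 of 9 above, 3 below and a median log2 difference of 0.05, or 0.09 after median subtraction and -0.02 without WT 1. Ulk1, the kinase that starts autophagy when nutrients or energy are low, was at 72.3, 66.9 and 57.9 FPKM in the WT libraries and at 71.4, 75.9 and 57.3 FPKM in the KO libraries. WT 3 and KO 3 were the lowest, and the groups overlapped (log2 difference 0.05, SE 0.13). Wipi1, which binds the lipid made at the forming membrane, was at 39.4, 51.4 and 39.1 FPKM against 42.5, 37.6 and 35.4 FPKM. Its WT 2 stood above the other 5, and the difference was -0.16 (SE 0.13). Pik3c3 encodes the catalytic subunit of the lipid kinase VPS34, and its values were 7.06, 6.70 and 7.21 FPKM against 7.82, 7.77 and 7.33 FPKM. The groups did not overlap, but the gap between the nearest libraries was small beside the spread within a label (difference 0.11, SE 0.10, limma unadjusted p = 0.277). Atg14, which directs that kinase to autophagy, was the lowest member as deposited, though Tfe3 was lower on the longest transcript (1.91 against 2.77 FPKM), and was at 2.88, 3.15 and 2.75 FPKM against 2.99, 3.22 and 2.94 FPKM, with overlapping groups.

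The remaining initiation members differed by log2 values between -0.10 and 0.09. Ulk2, the relative of Ulk1, had a mean of 34.3 FPKM and a narrow range of 32.8 to 36.1 FPKM. Atg13, the adaptor of the ULK complex, had a mean of 24.6 FPKM (22.04 to 29.4 FPKM). Atg9a, a membrane protein of the vesicles that seed the phagophore, had a mean of 27.4 FPKM (22.5 to 31.8 FPKM). WT 1 gave the lowest Atg9a value, and without it the difference turned from 0.05 to -0.07. Becn1, encoding Beclin 1, had a mean of 23.5 FPKM (19.996 to 24.9 FPKM), with the lowest value in that same library and a difference that turned from 0.05 to -0.05 without it. Atg2a, a lipid transfer protein, had a mean of 12.4 FPKM (10.96 to 14.3 FPKM). On the other strand Cntd1 overlaps 43.9% of the Becn1 exon bases, and on the same strand Gm29253 overlaps 31.8% of those of Atg9a, but the tables list them at 0.134 and 0 FPKM.

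Among the 7 conjugation genes 4 lay below 0 and 3 above, with a median of -0.08 (-0.03 after median subtraction, 0.0024 without KO 1). Atg3, the E2-like enzyme that hands ATG8 proteins to the membrane lipid, was at 14.8, 14.5 and 15.4 FPKM in WT libraries and at 13.04, 12.2 and 12.5 FPKM in the KO libraries. All 3 KO libraries lay below all 3 WT libraries, and the means were 14.9 ± 0.481 and 12.6 ± 0.416 FPKM (SD, n = 3 each). The Atg3 difference was -0.23 (SE 0.087, limma unadjusted p = 0.0307, adjusted p = 0.988), a ratio between 0.745 and 0.982 at 95%. It stayed between -0.25 and -0.20 when any 1 library was left out. Atg3 spans chr16:45158785-45188538 (mm10, plus strand), and its promoter stretch is printed above with 2 matches to CACGTG. No other annotated gene overlapped its exons.

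Atg7, the E1-like enzyme of both ubiquitin-like systems, was at 8.996, 8.53 and 7.63 FPKM against 8.21, 6.85 and 6.83 FPKM. KO 2 and KO 3 were the lowest, and KO 1 overlapped the WT values (difference -0.18, SE 0.12). Atg4a, a protease that trims ATG8 proteins, was at 32.2, 32.0 and 32.1 FPKM against 29.2, 31.2 and 38.6 FPKM. The WT libraries were nearly equal, and the KO libraries lay on both sides of them. Of the 50-base words in its transcripts, 51.2% also occur in the pseudogene Atg4a-ps, so reads could be split between them. Atg5, the partner to which ATG12 is joined, was the lowest of the role as deposited but not on the longest transcript, at 6.52, 5.80 and 6.44 FPKM against 5.69, 7.09 and 6.67 FPKM, with no separation. Atg4b had a mean of 20.7 FPKM (18.6 to 23.0 FPKM), Atg16l1, which places the ATG12 conjugate on the membrane, 13.7 FPKM (12.6 to 14.9 FPKM) and Atg12 11.97 FPKM (9.59 to 14.2 FPKM). Their differences were -0.08, 0.04 and -0.11.

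The 5 ATG8 genes varied little, with a median coefficient of variation over the 6 libraries of 5.50% beside 12.5% over all tested genes. Their median difference was -0.02, which turned to 0.02 after median subtraction or without WT 1 and to 0.05 without KO 1. Map1lc3a, an LC3 gene and the most abundant of them, was at 165, 168 and 168 FPKM in WT libraries (167 ± 1.86, SD, n = 3) and at 160, 148 and 151 FPKM in the KO libraries. The groups did not overlap, and the difference was -0.13 (SE 0.070, limma unadjusted p = 0.103). Map1lc3b, the LC3 gene most used as a marker of autophagosomes, was at 80.6, 75.0 and 78.4 FPKM against 77.1, 81.3 and 87.02 FPKM. It lay in the other direction from Map1lc3a (0.07, SE 0.079), with overlapping groups. Gabarapl1, a GABARAP family gene that FoxO factors are known to raise, had the widest range between libraries, at 47.9, 37.6 and 31.3 FPKM against 39.6, 31.8 and 35.4 FPKM. WT 1 stood highest, and without it the difference of -0.11 turned to 0.05. Gabarap had a mean of 132 FPKM (126 to 139 FPKM) and Gabarapl2 of 62.4 FPKM (55.0 to 66.5 FPKM), and their differences were 0.04 and -0.02.

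No cargo receptor gene had groups apart. The median difference of the 5 was -0.04, and 0.0082 after median subtraction. Sqstm1, encoding p62, which ties ubiquitinated aggregates to LC3, was at 450, 415 and 410 FPKM in WT libraries and at 438, 385 and 357 FPKM in the KO libraries. The mean was 425 ± 21.9 FPKM under the first label, and KO 1 overlapped it (difference -0.12, SE 0.093). Sqstm1 lies at chr11:50199366-50210827 (mm10, minus strand), and 17.3% of its exon bases overlap Mrnip on the other strand, which was at 1.97 FPKM. Bnip3, a mitophagy receptor of the outer mitochondrial membrane, was at 250, 278 and 301 FPKM against 222, 247 and 258 FPKM. The values interleaved, with a difference of -0.19 (SE 0.095, limma unadjusted p = 0.0827). Of the 50-base words of Bnip3, 47.2% occur in other annotated transcripts. Optn, the receptor optineurin, was at 40.9, 31.2 and 35.02 FPKM against 40.9, 39.4 and 30.6 FPKM, which shows no separation. Bnip3l, the relative of Bnip3 also called NIX, had a mean of 54.5 FPKM (50.3 to 61.8 FPKM) and differed by 0.05. Nbr1, which works beside p62, had a mean of 49.3 FPKM, the narrow range of 46.8 to 50.9 FPKM and a difference of -0.04.

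The 3 regulators differed widely in level. Tfeb, the factor most linked to lysosome gene expression, was at 109, 118 and 121 FPKM in WT libraries and at 120, 116 and 107 FPKM in the KO libraries. The groups overlapped, although KO 3 lay below all WT libraries, with a difference of -0.02 (SE 0.081), and the interval reached ratios of 0.867 and 1.12. Mitf, known best from pigment cells, was at 10.03, 9.21 and 10.3 FPKM against 10.1, 9.80 and 10.5 FPKM, also with overlap. Tfe3, a paralog with much the same targets, was at 4.61, 5.58 and 4.85 FPKM against 3.84, 3.65 and 4.32 FPKM. All 3 KO libraries were below all 3 WT libraries, with means of 5.01 ± 0.509 and 3.94 ± 0.343 FPKM. The Tfe3 difference was -0.28 (SE 0.12, limma unadjusted p = 0.0454, adjusted p = 0.988), and it lay between -0.34 and -0.22 when any 1 library was left out. Tfe3 lies on the X chromosome from 7762560 to 7775202 (mm10, plus strand), with 14 annotated transcripts and no overlapping gene.

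Lysosomal membrane and enzyme genes had a median of -0.11, with 6 of 9 below 0 (-0.06 and 5 of 9 after median subtraction, -0.03 without WT 2 and -0.17 without WT 1). Ctsz, the carboxypeptidase cathepsin Z, was at 21.5, 28.0 and 26.1 FPKM in WT libraries and at 21.9, 19.5 and 18.5 FPKM in the KO libraries. WT 2 and WT 3 stood high, and WT 1 lay among the KO libraries. With means of 25.2 ± 3.35 and 19.95 ± 1.73 FPKM, the Ctsz difference was -0.32 (SE 0.12, limma unadjusted p = 0.0266, adjusted p = 0.988), and it was -0.42 without WT 1 and -0.24 without WT 2. Ctsz lies at chr2:174427493-174439039 (mm10, minus strand). Ctsd, the aspartic protease cathepsin D and the most abundant member, was at 456, 503 and 543 FPKM against 448, 454 and 447 FPKM. The KO libraries were nearly equal and all below the others, although WT 1 came close (difference -0.15, SE 0.082, limma unadjusted p = 0.101). The annotated gene Gm49369 overlaps 34.4% of the Ctsd exon bases on the same strand. Hexa, a subunit of hexosaminidase, was the lowest of the role as deposited but not on the longest transcript, at 20.2, 24.6 and 21.8 FPKM against 22.4, 19.2 and 19.9 FPKM, with overlap.

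Gaa, the acid alpha-glucosidase that breaks down glycogen in lysosomes, had a mean of 172 FPKM (150 to 206 FPKM) and a difference of -0.18. Its highest value came from WT 2, and the groups overlapped. Lamp1 and Lamp2, the main glycoproteins of the lysosomal membrane, barely varied. Lamp1 had a mean of 153 FPKM (147 to 159 FPKM) and Lamp2 of 36.4 FPKM (35.7 to 37.3 FPKM), with differences of 0.0033 and -0.0047. The interval for Lamp2 ran from a ratio of 0.885 to 1.12. Ctsa, the protective protein of several glycosidases, had a mean of 56.8 FPKM (50.8 to 63.9 FPKM) and a difference of -0.15. The cysteine proteases Ctsb and Ctsl lay the other way at 0.07 and 0.06, with means of 77.0 FPKM (73.5 to 87.4 FPKM) and 50.9 FPKM (48.2 to 53.0 FPKM). Fdft1, at 28.2 FPKM, overlaps 12.8% of the Ctsb exon bases on the other strand, and Gm47123 overlaps 26.8% of those of Ctsl. Pltp and Neurl2, at 9.83 and 6.9 FPKM, together overlap up to 17.4% of those of Ctsa on the other strand. The values of Ctsb, Ctsl and Ctsa are uncertain where reads were not assigned by strand.

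The role values by library did not follow the label alone. Averaged over the lysosomal members, the deviation from a gene's 6-library mean was -0.02, 0.08 and 0.07 in WT 1, 2 and 3 and 0.01, -0.09 and -0.05 in the KO libraries. Over all tested genes it was -0.031, 0.044 and 0.045 in WT 1, 2 and 3 and -0.0075, -0.030 and -0.021 in KO 1, 2 and 3. High values in WT 2 and WT 3 were thus not particular to the lysosomal members. Initiation genes were low in WT 1 (-0.08), high in WT 2 (0.10) and between in the rest, with 0.08 in KO 1. ATG8 genes were highest in WT 1 (0.09). Each library was the highest of the 6 for 4 to 9 members and the lowest for 2 to 10.

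**Figure D4:**
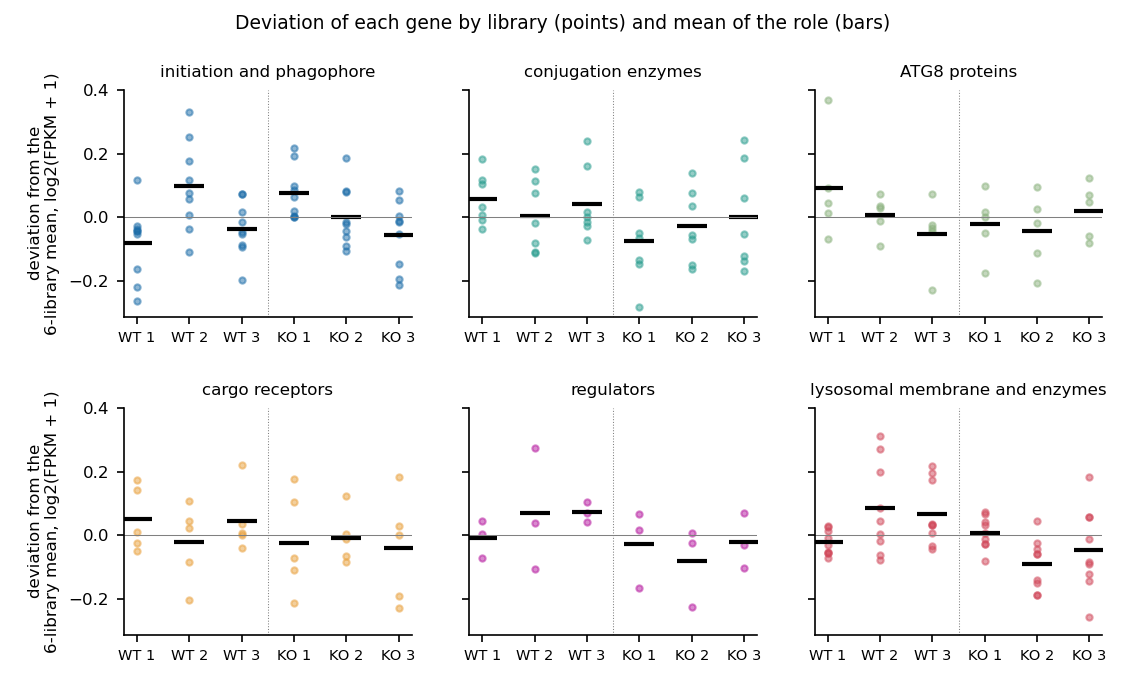
Deviation of each gene (points) from its mean over 6 libraries, on log2(FPKM + 1), by library and role; bars are the mean over the genes of the role, and WT and KO name the labels. Lysosomal genes have bars of 0.08 and 0.07 in WT 2 and WT 3 and of -0.09 and -0.05 in KO 2 and KO 3. The means over all tested genes, not drawn, are 0.044, 0.045, -0.030 and -0.021 in these libraries.

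Markers of other cell types and of slow fibres differed between the libraries, and only some followed the pattern of the lysosomal members. The 12 macrophage markers summed to 33.4, 74.3 and 80.5 FPKM in WT 1, 2 and 3 and to 38.2, 33.2 and 40.5 FPKM in the KO libraries. Of these, 12 of 12 had the lower mean FPKM in the KO libraries, the measure also used for the lists below. By log2 difference, 9 of the 10 tested macrophage markers lay below 0 and 1 above. The 8 fibroblast markers summed to 228, 470 and 455 FPKM against 236, 255 and 323 FPKM, with 8 of 8 lower. WT 2 and WT 3 were thus high in both lists, as they were for Ctsz. No marker of either list was at 0 in any library. The 6 slow fibre markers summed to 512, 550 and 272 FPKM in the WT libraries and to 311, 360 and 242 FPKM in the KO libraries, with 6 of 6 lower. Most of that sum is Myl3, and the median log2 difference of the 6 was -1.28, with 3 at a limma unadjusted p under 0.05. Myl2, a slow myosin light chain gene, was at 104, 77.5 and 54.8 FPKM against 20.2, 42.4 and 33.1 FPKM (limma unadjusted p = 0.0018, adjusted p = 0.988). In the slow fibre sums WT 1 and WT 2 stood high and WT 3 low, unlike the lysosomal members. The 8 neutrophil markers summed to 1.41, 9.29 and 203 FPKM against 6.10, 1.65 and 15.1 FPKM, with 8 of 8 lower and WT 3 far above the rest. S100a8, Ly6g, Mpo, Elane, Ltf and Retnlg were at 0 in at least 1 library. The 6 adipocyte markers summed to 84.8, 106 and 110 FPKM against 80.6, 79.0 and 90.3 FPKM, with 6 of 6 lower. The 6 endothelial markers lay at 129 to 187 FPKM in sum against 147 to 173 FPKM, with 5 of 6 lower. Their part in the member values was not tested, and in bulk RNA fewer cells of a type and less RNA per cell cannot be told apart.

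The wider pathway was read from 5 further lists with 120 genes, of which 116 were tested. Of these, limma called 0, and 3 of the 116 (all lysosomal, all lower) had an unadjusted p under 0.05, against 3.31% lower and 1.28% higher over all tested genes. Of the 116, 38 lay above 0 and 78 below (67.2% below, against 56.7% of all tested genes), with a median of -0.04, or 0.011 after median subtraction. After that subtraction 52 lay below 0. Nipsnap1, Glb1, Galns and Arsb were under the filter.

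Other autophagy machinery had 13 of 25 genes above 0 and a median of 0.02, which turned to -0.0097 without WT 2, -0.03 without WT 3 and -0.00032 without KO 3. Rab7, the small GTPase of late endosomes, was the most abundant as deposited, at 104 ± 17.1 FPKM in WT libraries and 115 ± 9.28 FPKM in the KO libraries (SD, n = 3). Epg5, which tethers autophagosomes to lysosomes, was at 3.58, 4.07 and 3.80 FPKM against 4.55, 4.66 and 4.83 FPKM. Its groups were apart, with a difference of 0.24 (SE 0.11, limma unadjusted p = 0.0591). Stx17, the SNARE of the closed autophagosome, was at 12.2, 14.3 and 12.98 FPKM against 15.3, 15.0 and 14.5 FPKM, also apart (0.17, SE 0.095).

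Other receptors and mitophagy genes had a median of -0.06, with 10 of 15 below 0 (-0.011 and 8 of 15 after median subtraction, and a median of -0.0021 without KO 3). Pink1, the kinase that marks damaged mitochondria, was at 457 ± 13.8 and 480 ± 15.7 FPKM, a level above that of Sqstm1 in the means of both labels. Fkbp8, a mitophagy receptor, was at 99.7, 102 and 98.6 FPKM against 94.5, 92.1 and 92.0 FPKM, apart by a small step (-0.11, SE 0.069). Calcoco1, a further autophagy receptor gene, differed by 0.12. Among the 17 subunits and partners of the vacuolar ATPase, the proton pump that acidifies lysosomes, 12 lay below 0 (8 after median subtraction) with a median of -0.04 (0.0081 after median subtraction). Atp6v1g1 was the most abundant as deposited, at 171 ± 16.7 and 172 ± 16.04 FPKM. Atp6v1a, the catalytic subunit, was at 10.6, 11.5 and 13.7 FPKM against 9.75, 9.94 and 9.88 FPKM. The KO libraries agreed closely and lay below the others (-0.25, SE 0.11, limma unadjusted p = 0.0552), while Atp6ap2, an accessory subunit, overlapped (-0.20).

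Other lysosomal genes had 29 of 39 below 0 (19 after median subtraction) and a median of -0.05 (0.0018 after median subtraction). Psap, the precursor of the saposins, was at 264 ± 10.2 and 261 ± 29.8 FPKM. Lgmn, the asparaginyl protease legumain, was at 23.1, 24.4 and 20.04 FPKM against 17.98, 18.8 and 16.995 FPKM, apart by a difference of -0.31 (SE 0.10, limma unadjusted p = 0.0147). Dpp7, a dipeptidyl peptidase, was at 10.6, 9.20 and 10.9 FPKM against 8.18, 8.56 and 8.02 FPKM, also apart (-0.28, SE 0.10, limma unadjusted p = 0.0259). Ctss, a cathepsin of antigen-presenting cells outside the naming rule and picked with its values known, was at 1.44, 3.13 and 3.92 FPKM against 1.52, 1.41 and 0.958 FPKM (-0.69, SE 0.26, limma unadjusted p = 0.0270). As with the macrophage markers, WT 2 and WT 3 stood high for Ctss and WT 1 lay among the KO libraries. Other genes of the list did not share this pattern. For Lgmn, WT 1 lay above every KO library. Ctsc was at 25.2, 22.5 and 17.6 FPKM in WT 1, 2 and 3 against 19.7, 21.2 and 24.7 FPKM in KO 1, 2 and 3. Nutrient and transcriptional control genes had a median of -0.05 (0.02 without WT 1, 0.0010 after median subtraction) and 15 of 20 below 0 (10 after median subtraction). Lamtor1, part of the lysosomal anchor of mTORC1, was at 98.005 ± 2.499 and 92.8 ± 5.20 FPKM, and Lamtor2 differed by -0.17. Prkaa2, the AMPK catalytic subunit of muscle, was at 29.4, 31.7 and 29.9 FPKM against 33.1, 33.4 and 34.6 FPKM, apart by 0.15 (SE 0.078).

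**Figure D5:**
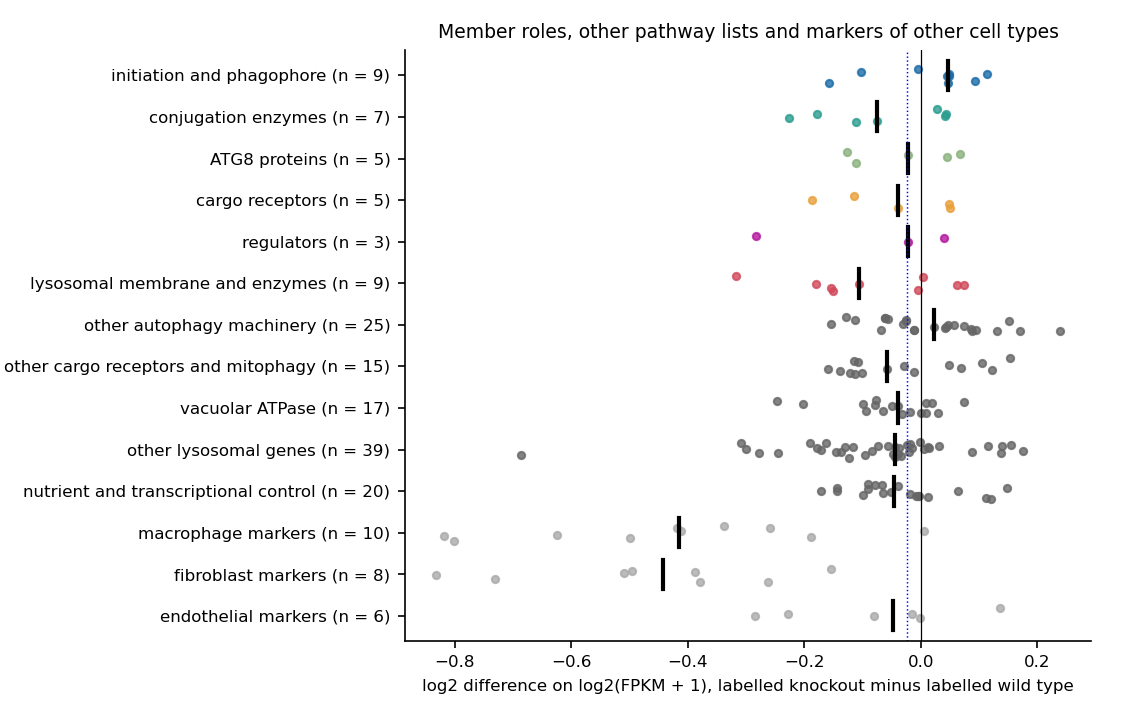
Log2 difference of each tested gene, labelled knockout minus labelled wild type, by member role, other pathway list and marker list; black bars are medians, the solid line is 0 and the dotted line the median of all tested genes. The marker lists drawn have medians of -0.44 (fibroblast), -0.42 (macrophage, 10 of 12 tested) and -0.05 (endothelial). The medians of the 6 roles lie between -0.11 and 0.05. Lists not drawn have medians of -1.28 (slow fibre), -1.21 (neutrophil, 5 of 8 tested), -0.40 (adipocyte, 5 of 6 tested) and 0.05 (muscle fibre, 9 of 10 tested).

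The 10 members with CACGTG in a listed promoter had a median difference of -0.15, and the 21 with a promoter and no match had one of -0.02. The share below 0 was 60% and 61.9%, against 56.7% of all tested genes. In these sets 1 of 10 and 2 of 21 had a limma unadjusted p under 0.05, against 4.59% of all tested genes. The intervals of all 10 lay inside a 1.5-fold change of FPKM + 1. So did those of 20 of the 21 (95.2%) and of 86.3% of tested genes in the members' range of mean FPKM. The members with and without a match are 2 small sets, and no test was run on them.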

How the data were processed

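RNA from TA muscle was sequenced in 6 libraries, and the authors deposited 1 table of FPKM per gene for each library, as the file headers show. The build mm10, Cufflinks 2.2.1 and TopHat2 2.1.1 appear per the submitters' processing notes. Their roles, the annotation, strand assignment and read filters are not stated in the sources. Symbols came from the Ensembl IDs, and positions and transcripts from GENCODE M21 on the same build, which may not be the authors' release. Each library's total was first estimated from genes above 0 in a single library. For all 23559 genes above 0, the smallest length that gave whole fragments was then taken (tolerance 0.002 of a fragment). For genes above 0 in few libraries such a length can be found by coincidence, so their recovered lengths are not certain. Totals were 10752204, 10856669 and 8842349 fragments for WT 1 to 3 and 9708838, 10435095 and 8476591 for KO 1 to 3, so that 1 fragment on 1 kb is worth 0.0921 to 0.118 FPKM.

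Differences were tested with limma 3.58.1 (R 4.3.3) with a mean-variance trend on log2(FPKM + 1), which understates changes of low genes, over the 11383 genes whose mean reached 1 FPKM. Benjamini-Hochberg adjustment ran over all of them, and the procedure was tested on simulated data. Mettl21e was also tested by exact permutation. Alternatives were 2 scalings, pseudocounts of 0.1 and 0.01, no filter, a mean of at least 5 FPKM, a replicate block, no trend, library weights, voom on recovered fragments and leaving out each library.

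The members and lists were chosen with earlier results of these data known. Values by library are given for the highest, the lowest and the 2 smallest unadjusted p members of each role, with means and ranges for the others, and from each further list the highest and the 2 smallest p genes are named. No library pair agreed within sampling noise (chi-square per degree of freedom 7.04 to 23.8). Python 3.11.15 was used with numpy 2.4.6, pandas 2.3.3 and matplotlib 3.10.9.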

Additional observations from a re-analysis of the deposited data

How the results depend on the processing

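No member was called under any of the 16 alternatives, and the lowest adjusted p of a member was 0.202 (limma, without WT 1), with 0.288 under library weights. The number of members at an unadjusted p under 0.05 was 3, and 1 after median subtraction, 1 after quantile normalization, 0 with the replicate block, 8 with library weights and 0 to 5 when 1 library was left out. Over all genes the library weights gave 1413 and leaving out WT 1 gave 1356 such genes, against 523. The median member difference was -0.013, 0.034 after median subtraction and -0.032 to -0.016 with 1 library left out.

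Same-numbered libraries shared no broad deviation, with correlations of 0.024, -0.041 and 0.023 across genes. Whether they were paired in the experiment cannot be told from these values. The replicate block left 472 genes at an unadjusted p under 0.05 and called 0.

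Of 378 member values under the 10 alternatives that keep all libraries, 10 changed sign. After median subtraction these were Gabarapl2 (0.024), Lamp2 (0.042), Nbr1 (0.0082), Tfeb (0.026) and Ulk2 (0.042), and after quantile normalization Lamp2 (0.026) and Ulk2 (0.017). With library weights they were Atg9a (-0.058), Becn1 (-0.020) and Gabarapl2 (0.047). When 1 library was left out, the sign changed for 16 members. The ranges were -0.23 to 0.0024 for Atg12, -0.0014 to 0.11 for Atg16l1, -0.087 to 0.11 for Atg4a, -0.016 to 0.12 for Atg5, -0.074 to 0.15 for Atg9a and -0.050 to 0.099 for Becn1. They were -0.029 to 0.12 for Bnip3l, -0.25 to 0.045 for Gabarapl1, -0.076 to 0.060 for Gabarapl2, -0.025 to 0.033 for Lamp1, -0.022 to 0.012 for Lamp2 and -0.0032 to 0.071 for Mitf. They were -0.042 to 0.17 for Optn, -0.063 to 0.026 for Tfeb, -0.038 to 0.17 for Ulk1 and -0.034 to 0.030 for Ulk2. Mettl21e ranged from -0.068 to 0.63. The other 21 members kept their sign under every alternative that tested them, and the filter of 5 FPKM left out Atg14 and Tfe3. The causes were not tested.

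With 3 libraries a label, a difference smaller than the intervals given could not be seen. Counting error reached 10.9% of the value at the lowest member, and it covers fragments, not animals. The values are 1 per gene, so transcripts and protein turnover (autophagic flux) were not measured.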

Other observations

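Of the 25 genes of other autophagy machinery, 3 had groups apart and higher in the KO libraries and 1 apart and lower, beside 3.84% and 5.64% of all tested genes. All 4 are given here by that criterion, with their values known. Epg5 and Stx17 are given above. Snap29, the SNARE that joins Stx17, was at 4.53, 4.86 and 4.78 FPKM in WT 1, 2 and 3 and at 4.93, 5.23 and 5.09 FPKM in KO 1, 2 and 3, a log2 difference of 0.09 (SE 0.10). Vamp8, a SNARE on the lysosome side, was the lower one, at 17.1, 15.6 and 16.2 FPKM against 14.01, 14.4 and 15.2 FPKM (-0.16, SE 0.089). All 4 were at a limma adjusted p of 0.988.

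Map1lc3a and Map1lc3b had differences of opposite sign (-0.13 and 0.07). Of the 5 cathepsin genes among the members, Ctsz, Ctsa and Ctsd lay below 0 (-0.32, -0.15 and -0.15) and Ctsb and Ctsl above it (0.07 and 0.06). Of the 6 others listed and tested, Ctss, Ctsk and Ctsh lay below 0 (-0.69, -0.30 and -0.15) and Ctso, Ctsf and Ctsc above it (0.17, 0.01 and 0.01). The differences between these genes were not tested.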
